A study of Solanum lycopersicum with 31 samples.

Results

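Tomato plants (Solanum lycopersicum, cultivar Moneymaker, wild type) were grown beneath a filter of the organic solar cell blend FTAZ:PCBM or beneath a control filter labelled spectrally neutral, with the height held equal. The 2 groups are FP_HC (FTAZ:PCBM, height controlled) and C_HC (control, height controlled), chosen by their sample titles, with 4 libraries each. They are 8 of the 31 leaf libraries of the study, each from an individual plant. FTAZ is a donor polymer and PCBM a fullerene acceptor, and a blend of this kind absorbs part of the light before it reaches the leaf. All plants stood in a growth chamber under ceramic metal halide and incandescent lamps. The comparison asks how leaf gene expression differs beneath a spectrally selective filter when height, rather than photon flux, is the controlled quantity. The labels give neither the photon flux that reached these plants nor the hour of sampling, so the amount of light and its spectrum cannot be told apart as the difference between the groups. The other groups used here are FI_HC (FTAZ:IT-M, 4 libraries) and PI_HC (PTB7-Th:IEICO-4F, 3 libraries) at equal height, and FP_PC and C_PC (4 libraries each), which are the FTAZ:PCBM and control filters with photon flux controlled.

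The plant circadian clock is a set of interlocked transcriptional loops. Morning factors of the LHY and REVEILLE type, the pseudo-response regulators (PRRs) and evening components such as GIGANTEA and the EARLY FLOWERING proteins act on one another through the day, and day-length control of flowering reads their output. Sulfur enters plant metabolism as sulfate, which is activated by ATP sulfurylase, reduced by 5'-adenylylsulfate (APS) reductase and sulfite reductase, and built into cysteine. In Arabidopsis, APS reductase is the step most under control by sulfur demand and light, and LSU (RESPONSE TO LOW SULFUR) and SDI (SULFUR DEFICIENCY-INDUCED) genes are markers of low sulfur. Cytosolic ribosomal protein genes form a large family that tends to be regulated together with growth and energy supply.

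The 8 libraries held between 13990451 and 15210356 gene counts, and 3 counts in a library corresponded to 0.197 to 0.214 CPM (counts scaled to library size). Values per library below are CPM scaled with TMM factors, and they compare a gene between libraries, not 1 gene with another. Of 24 genes for leaf mesophyll markers, all had counts in these 8 libraries, with a summed level of 48620 to 65208 CPM in FP_HC and 54958 to 59021 CPM in C_HC. Summed markers of phloem lay at 627.9 to 680.9 CPM in FP_HC and at 566 to 685.7 CPM in C_HC, and those of xylem and wall formation at 151.1 to 212.5 CPM in FP_HC and at 139.5 to 154.4 CPM in C_HC. Those of epidermis and trichome lay at 2948 to 3555 CPM in FP_HC and at 2734 to 3648 CPM in C_HC. Genes listed as pollen and anther markers summed to 558.5 to 670.7 CPM in FP_HC and 577.5 to 669.1 CPM in C_HC. Of these 25 genes, 16 had counts, so markers named for tissues other than leaf were not absent. Seed markers summed to at most 12.7 CPM in FP_HC and 14.03 CPM in C_HC, and of 3 ripening-fruit markers 2 held no count in any of the 8. Some libraries stood apart within their groups. JINGUBANG (LOC101249728) had 25.04 CPM in FP_HC 2, 29.0 CPM in C_HC 2 and 35.2 CPM in C_HC 4, and 0 in the other 5 libraries. CBF1, a cold- and stress-inducible transcription factor, had 63.0 CPM in C_HC 4, against 0.80 to 1.25 CPM in the other control libraries. The part of these differences between libraries in the results below was not tested, beyond the values given with those libraries left out. In bulk leaf tissue, fewer cells of a type and less RNA per cell cannot be told apart.

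Of 16198 genes tested, 6 passed an adjusted p of 0.05 (0.037%) with edgeR's quasi-likelihood test: 3 were higher and 3 lower in FP_HC (0.0185% each). GIGANTEA, the PRR gene PRR37 and SP5G, a flowering repressor of the FT family, rose, and an LSU3-like gene with a pair of APS reductase genes fell. At an unadjusted p under 0.05 there were 1096 genes (6.77%), of which 544 were higher (3.36%) and 552 lower (3.41%). In each of the 6 genes the 4 FP_HC libraries and the 4 C_HC libraries did not overlap, which was also so for 449 genes that were higher (2.77%) and 512 that were lower (3.16%) among all genes tested. Most of the 6 calls were lost when any 1 library other than C_HC 4 was left out. With 1 library left out at a time, between 0 and 7 genes passed. None passed without FP_HC 1, FP_HC 3, FP_HC 4 or C_HC 1. Without FP_HC 2 or C_HC 2 there was 1, and without C_HC 3 there were 2. Without C_HC 4, 7 passed, 5 of them among the 6, and SP5G did not (edgeR adjusted p = 0.0894). The direction of all 6 was kept each time. Leaving out FP_HC 2, C_HC 2 and C_HC 4 together, the 3 libraries with JINGUBANG, gave 21 genes, among them 4 of the 6. With a term for JINGUBANG in the model, only LSU3-like passed, and the other 5 genes had an edgeR adjusted p of 0.0572 each. Both alternatives were chosen after seeing the data.

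**Figure D1:**
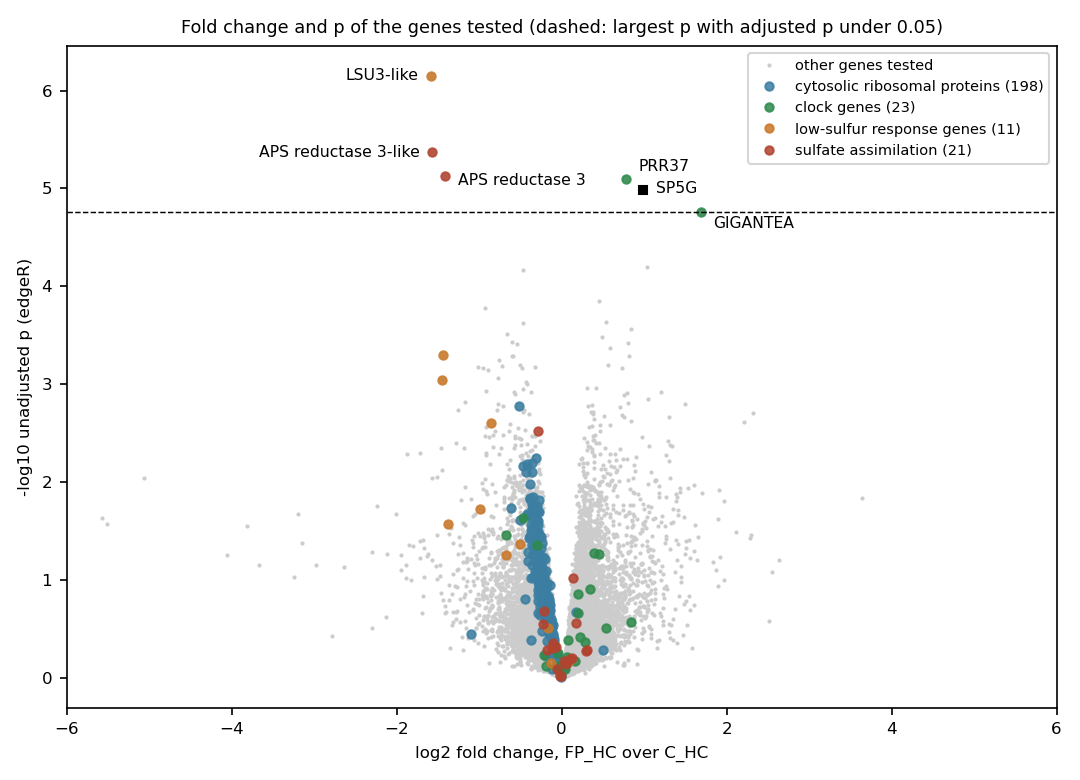
Log2 fold change (FP_HC over C_HC) against −log10 of the unadjusted edgeR p for 16198 genes, with 4 gene lists in colour, SP5G as a black square and a dashed line at the largest p that passed the adjusted threshold. The 6 called genes stand on or above the line, and the 198 cytosolic ribosomal protein genes form a narrow band left of 0 with none above it.

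Among clock genes, PRR37 (LOC101254785, SL3.0 chromosome 4, 42786557 to 42814212) had 115.5, 119.3, 123.0 and 120.3 CPM in the FP_HC libraries, against 59.1, 59.9, 70.3 and 89.6 CPM in the C_HC libraries. PRR37 is a pseudo-response regulator, a member of the family that represses morning genes of the clock in Arabidopsis. The FP_HC plants were nearly uniform, and the control plants ranged more widely, with C_HC 4 nearest to the filter group. The mean was 119.5 ± 3.08 CPM in FP_HC and 69.7 ± 14.2 CPM in C_HC (SD, n = 4 each), a log2 fold change of 0.78 (SE 0.141, adjusted p = 0.0321 with edgeR).

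GIGANTEA (LOC101255788, chromosome 4, 59098860 to 59140915), an evening-phased clock and flowering regulator in Arabidopsis, had the largest change of the 6 genes. It had 21.4, 35.5, 36.7 and 36.1 CPM in the FP_HC libraries, against 7.4, 7.1, 10.3 and 15.4 CPM in the C_HC libraries. FP_HC 1 was lower than the other FP_HC libraries and still above every control. GIGANTEA averaged 32.4 ± 7.36 CPM in FP_HC and 10.1 ± 3.87 CPM in C_HC (SD, n = 4 each), and the log2 fold change was 1.69 (SE 0.324, edgeR adjusted p = 0.0472). A second locus described as GIGANTEA-like (LOC101258346, chromosome 12) had 0 counts in each of the 15 equal-height libraries, so levels up to 3 counts per library are not excluded there.

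SP5G (chromosome 5, 64738354 to 64740327) encodes the tomato protein SELF PRUNING 5G, which delays flowering and responds to day length. It had 77.1, 58.9, 74.5 and 69.7 CPM in the FP_HC libraries, against 34.6, 26.4, 44.2 and 36.0 CPM in the C_HC libraries. The lowest FP_HC plant lay above the highest control plant, and the spread within both groups was alike. The mean was 70.1 ± 8.04 CPM in FP_HC and 35.3 ± 7.31 CPM in C_HC (SD, n = 4 each), with a log2 fold change of 0.99 (SE 0.183, edgeR adjusted p = 0.0336).

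The rest of the clock did not move as a block. Of 30 clock genes, 23 had enough counts to be tested, and 2 were called, both higher (PRR37 and GIGANTEA), against 0.0185% of all genes. The median log2 fold change of the 23 was 0.16, against 0.003 over all genes tested, with 15 above and 8 below 0. That median was 0.08 without C_HC 2, 0.09 without C_HC 3 and 0.07 over the 15 genes with a single transcript. Without a filter on low counts it stayed at 0.16 for the same 23 genes. With the thinly counted clock genes added it was 0.08 (17 above and 11 below 0). At an unadjusted p under 0.05 stood 2 genes above 0 (3.36% of all genes did) and 3 below it (3.41% of all genes). The 3 were REVEILLE 1, a morning-type MYB factor; APRR1 (LOC101259425), a homologue of the evening regulator TOC1; and PCL1 (LOC101257473), which names the LUX-type component of the evening complex. REVEILLE 1 had 251.2, 252.3, 203.1 and 199.0 CPM in FP_HC, against 340.9, 316.1, 298.9 and 292.1 CPM in C_HC, without overlap, and its log2 fold change was −0.46 (SE 0.193, edgeR adjusted p = 0.671). APRR1 overlapped between the groups, with 107.8 to 139.2 CPM in FP_HC and 129.5 to 163.5 CPM in C_HC. PCL1 was counted thinly, at 1.10 to 2.55 CPM in FP_HC and 1.71 to 3.21 CPM in C_HC.

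Other clock genes that were well covered had overlapping groups. EARLY FLOWERING 3 is an evening complex subunit. Its copy LOC101267430 had 43.8 to 46.3 CPM in FP_HC and 40.1 to 45.1 CPM in C_HC, and its copy LOC101268174 had 55.9 to 72.4 CPM in FP_HC and 48.8 to 63.2 CPM in C_HC. The MYB factor REVEILLE 8 averaged 225.6 ± 18.0 CPM in FP_HC and 216.0 ± 21.1 CPM in C_HC, and REVEILLE 7 averaged 285.4 ± 28.7 CPM in FP_HC and 278.2 ± 31.7 CPM in C_HC (SD, n = 4 each). EARLY FLOWERING 4 (LOC101267898) had 7.66 to 9.84 CPM in FP_HC, against 5.86 to 8.83 CPM in C_HC, and a log2 fold change of 0.39 (SE 0.194, edgeR adjusted p = 0.746). For 8 of the 23 clock genes, LHY and LNK1 among them, the annotation holds several transcripts, and the authors' counting left few fragments for such genes.

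**Figure D2:**
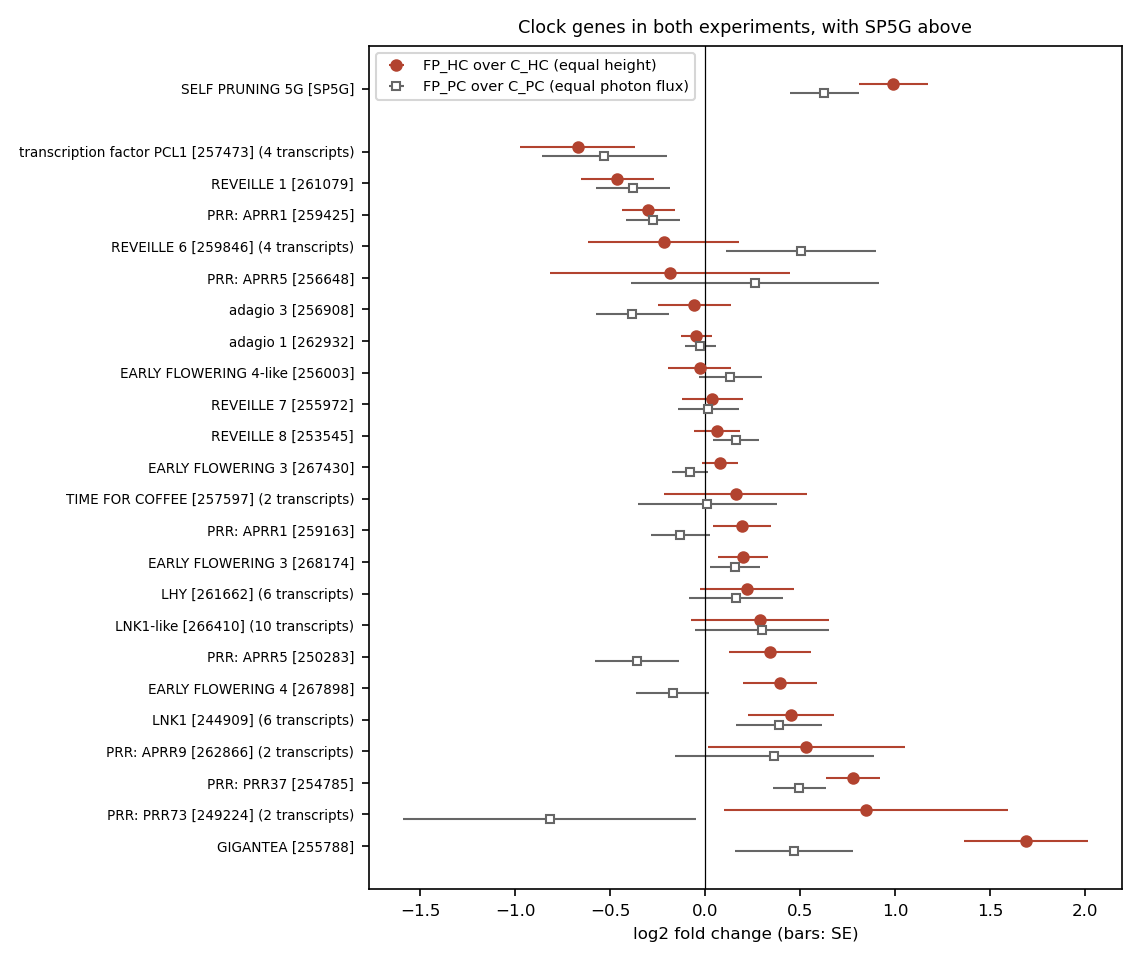
Log2 fold change with its SE for the 23 tested clock genes and SP5G, in FP_HC over C_HC (red circles) and in FP_PC over C_PC (open squares), with the last 6 digits of the gene identifier in brackets. GIGANTEA (1.69), PRR37 (0.78) and SP5G (0.99) lie clear of 0 at equal height, and 8 of the 23 clock genes lie left of 0.

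Photoperiod genes downstream of the clock were tested for 29 of 39 members. None of these 29 was called (0.037% of all genes were). Their median log2 fold change was −0.02, with 14 above and 15 below 0. The called gene SP5G, which responds to day length, stands outside this list, which was made by patterns on gene descriptions. At an unadjusted p under 0.05 were 3 lower members (10.3%, against 3.41% of all genes) and 1 higher one (3.45%, against 3.36%). CONSTANS-LIKE 14-like (LOC101254090) had 3.88, 5.58, 5.17 and 6.06 CPM in FP_HC, against 8.17, 7.49, 8.17 and 8.79 CPM in C_HC. CONSTANS-LIKE 10 (LOC101267825) had 61.8, 63.8, 52.0 and 59.2 CPM in FP_HC, against 86.7, 82.1, 80.6 and 70.6 CPM in C_HC. Both are B-box zinc finger proteins, and neither gene had overlapping groups. Their log2 fold changes were −0.66 (SE 0.159, edgeR adjusted p = 0.348) for CONSTANS-LIKE 14-like and −0.43 (SE 0.117, edgeR adjusted p = 0.423) for CONSTANS-LIKE 10. Cyclic dof factor 2 (LOC101243956), of a family that represses CONSTANS in Arabidopsis, had 91.8 to 110.6 CPM in FP_HC, against 76.1 to 92.6 CPM in C_HC. Its log2 fold change was 0.27 (SE 0.117, edgeR adjusted p = 0.678).

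The smallest p in the comparison was that of a sulfur gene. The LSU3-like gene LOC101243970 (chromosome 3, 60555181 to 60555854) had 44.9, 56.1, 46.4 and 41.6 CPM in the FP_HC libraries, against 183.5, 140.7, 145.8 and 96.8 CPM in the C_HC libraries. LSU proteins are small coiled-coil proteins that accumulate in sulfur-starved Arabidopsis. All FP_HC plants were low and alike, and the control plants spread widely, with C_HC 4 lowest. The gene averaged 47.3 ± 6.24 CPM in FP_HC and 141.7 ± 35.5 CPM in C_HC (SD, n = 4 each), and it fell by 1.58 on the log2 scale (SE 0.247, edgeR adjusted p = 0.0114). It passed the threshold in 4 of the 8 fits that left out 1 library, which is more often than any of the other 5 called genes, each of which passed in 1.

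Next to it on chromosome 3, within 20.2 kb in all, lie 2 more genes described as LSU3-like. LOC101268660 (60535619 to 60536369) had 1.74, 1.16, 0.85 and 1.58 CPM in FP_HC, against 4.22, 3.54, 3.99 and 2.15 CPM in C_HC. LOC101243684 (60549304 to 60549891) had 3.28, 1.97, 2.42 and 2.14 CPM in FP_HC, against 4.48, 6.42, 5.36 and 3.29 CPM in C_HC. Both had lower levels in every FP_HC plant than in any C_HC plant, at log2 fold changes of −1.38 (SE 0.590) and −0.99 (SE 0.397), and neither passed the test (edgeR adjusted p = 0.678 and 0.655). The 3 genes carry 1 description and may resemble one another in sequence, which was not examined here, so that fragments could have been shared or lost between them.

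The low-sulfur response list as a whole held 14 genes, of which 11 were tested. Beside the called LSU3-like gene, 6 more stood below 0 at an unadjusted p under 0.05, so that 7 of 11 (63.6%) did, against 3.41% of all genes. These 7 were all 3 tested LSU3-like genes, all 3 SDI genes and a putative gamma-glutamylcyclotransferase gene (LOC101250297). A log2 fold change below 0 was found in 10 of the 11, and the median was −0.85, against 0.003 over all genes. Over the 7 genes with at least 10 counts in every library it was −0.50, with 4 lower at an unadjusted p under 0.05, and without the 3 libraries with JINGUBANG 4 of the 11 were lower at that p. SDI1 (LOC101260472), a repressor of glucosinolate synthesis genes in Arabidopsis, had 1.74, 1.57, 2.55 and 1.65 CPM in FP_HC, against 7.45, 5.62, 3.60 and 3.96 CPM in C_HC. Its log2 fold change was −1.45 (SE 0.390, edgeR adjusted p = 0.423). SDI1-like (LOC101258461) had 1.74, 0.95, 1.18 and 0.76 CPM in FP_HC, against 4.35, 2.81, 2.09 and 3.36 CPM in C_HC. SDI2 (LOC101258787) had 10.8, 12.3, 9.55 and 10.4 CPM in FP_HC, against 23.9, 18.9, 20.5 and 14.6 CPM in C_HC. The SDI genes each separated the groups without overlap, at log2 fold changes of −1.44 (SE 0.364, edgeR adjusted p = 0.348) for SDI1-like and −0.85 (SE 0.257, edgeR adjusted p = 0.529) for SDI2. ETHYLENE INSENSITIVE 3-like 3 (LOC101264242), which carries the name of the Arabidopsis regulator of sulfur limitation SLIM1, had 0.75 to 1.45 CPM in FP_HC and 1.64 to 2.37 CPM in C_HC, and its log2 fold change was −0.68 (SE 0.340, edgeR adjusted p = 0.752). Groups without overlap, with FP_HC lower, were found in 7 of the 11 genes, against 3.16% of all genes tested. The members were measured in the same libraries, and the LSU3-like genes may share fragments, so these counts are not separate pieces of evidence. The decrease was not particular to FP_HC. Over the same C_HC libraries the median was −0.53 for FI_HC and −1.05 for PI_HC, with 0 of the 11 genes above 0 in each.

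Of the sulfate assimilation genes, the change was seen at the APS reductase step. APS reductase 3 (LOC101257319, chromosome 2, 29913915 to 29916444) had 35.9, 43.8, 36.8 and 24.7 CPM in the FP_HC libraries, against 123.3, 89.8, 82.6 and 79.4 CPM in the C_HC libraries. APS reductase reduces activated sulfate to sulfite in the chloroplast. Every control plant lay well above the highest FP_HC plant, and C_HC 1 was the highest. The gene averaged 35.3 ± 7.90 CPM in FP_HC and 93.8 ± 20.1 CPM in C_HC (SD, n = 4 each), and it fell by 1.41 on the log2 scale (SE 0.255, edgeR adjusted p = 0.0321).

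APS reductase 3-like (LOC101252466, chromosome 3, 4121794 to 4124728) had 4.28, 5.31, 6.08 and 4.27 CPM in the FP_HC libraries, against 17.7, 16.6, 15.4 and 9.67 CPM in the C_HC libraries. It fell by 1.57 (log2, SE 0.274, edgeR adjusted p = 0.0321), and C_HC 4 was again the control nearest to the filter group, as in 5 of the 6 called genes. Another locus, LOC544267 (adenylyl-sulfate reductase, chromosome 2, 45383686 to 45386330), had far more counts. It had 584.6, 624.2, 481.8 and 382.1 CPM in FP_HC, against 1142, 1117, 891.2 and 805.5 CPM in C_HC. The groups did not overlap here either, but the log2 fold change of −0.93 (SE 0.214) did not pass with edgeR (adjusted p = 0.270), whereas it passed with DESeq2 (adjusted p = 0.0224). This locus is spelled differently and stands outside the list of 25 assimilation genes.

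The other steps of the pathway gave smaller differences. Of 21 assimilation genes tested, 2 were called, both lower (0.0185% of all genes were), and 3 stood below 0 at an unadjusted p under 0.05 (3.41% of all genes did). The median log2 fold change was −0.05, with 8 above and 13 below 0. Sulfite reductase (LOC101055609, chromosome 11), the step after APS reductase, had 172.5, 191.6, 195.4 and 173.4 CPM in FP_HC, against 266.6, 217.9, 203.3 and 209.4 CPM in C_HC, with a log2 fold change of −0.29 (SE 0.0895, edgeR adjusted p = 0.554). ATP sulfurylase 1 (LOC101256557), the step before it, had 87.6 to 100.4 CPM in FP_HC and 89.0 to 125.6 CPM in C_HC. APS reductase-like 5 (LOC101265466), whose name places it among the reductase-like proteins rather than the enzymes of the pathway, had 90.3 to 95.1 CPM in FP_HC and 80.7 to 84.7 CPM in C_HC, at a log2 fold change of 0.14 (SE 0.0815, edgeR adjusted p = 0.811).

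Uptake and downstream use of sulfur did not share the decrease. Of 11 sulfate transporter genes tested, none was called or stood at an unadjusted p under 0.05. A log2 fold change above 0 was found in 10 (90.9%, against 50.5% of all genes), with a median of 0.22. Probable sulfate transporter 3.3 (LOC101250213) had 117.3 to 157.3 CPM in FP_HC and 95.9 to 121.5 CPM in C_HC. Of 43 glutathione genes, 24 were above and 19 below 0, none was called, and the median was 0.04. The single one at an unadjusted p under 0.05 was a probable glutathione peroxidase (LOC101248896), at 115.4 to 133.3 CPM in FP_HC and 98.5 to 107.5 CPM in C_HC. The 10 tested genes of methionine and S-adenosylmethionine metabolism had a median of 0.05, with none at an unadjusted p under 0.05.

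**Figure D3:**
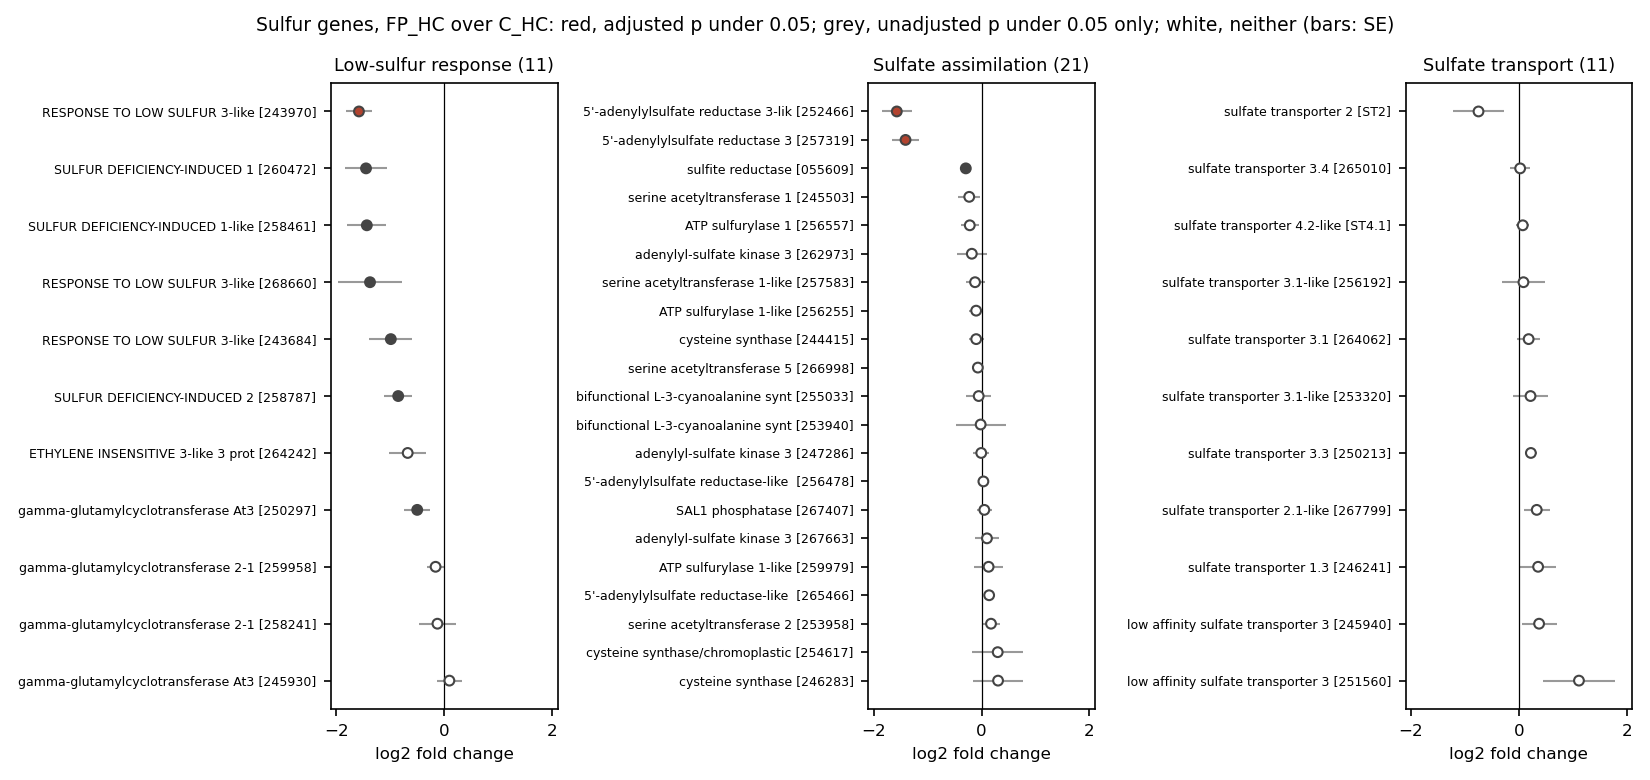
Log2 fold change of FP_HC over C_HC with its SE for the tested genes of low-sulfur response (11), sulfate assimilation (21) and sulfate transport (11), with the last 6 digits of the identifier in brackets. Red marks the 3 called genes, which lie between −1.58 and −1.41, and grey marks genes at an unadjusted p under 0.05. Transporters lie mostly right of 0 with none marked.

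No cytosolic ribosomal protein gene passed the test, and most had a small negative log2 fold change. Of 232 such genes, 198 were tested, and 194 of these (98.0%) had a log2 fold change below 0, against 49.5% of all genes tested (50.5% lay above 0). The median was −0.25, and the quartiles were −0.31 and −0.17. At an unadjusted p under 0.05, 58 genes (29.3%) were lower, against 3.41% of all genes, and none was higher. The smallest adjusted p was 0.466 with edgeR, and DESeq2 called none either. Members of this family were scaled and measured in the same libraries and vary together, so their counts are not separate pieces of evidence. The median was −0.23 over 75 small-subunit genes, of which 16 were lower at an unadjusted p under 0.05, and −0.26 over 123 large-subunit genes, of which 42 were. The difference between the subunits was not tested.

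The member with the smallest p was 40S ribosomal protein S18 (LOC101266399), which had 27.6, 24.98, 24.9 and 21.4 CPM in FP_HC, against 37.5, 36.8, 37.3 and 30.2 CPM in C_HC. These groups did not overlap, and the log2 fold change was −0.52 (SE 0.149, edgeR adjusted p = 0.466). Another member was 60S ribosomal protein L10a-1 (LOC101245686), with 60.5, 66.2, 58.4 and 55.8 CPM in FP_HC, against 73.5, 70.8, 90.6 and 63.3 CPM in C_HC. Here C_HC 4 fell within the range of the filter group. Groups did not overlap in 17 of the 198 genes (8.59%), all lower, against 3.16% of all genes.

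A single library at each end set the range of this family. The cytosolic ribosomal protein genes took 1.65%, 1.70%, 1.65% and 1.35% of counts in the FP_HC libraries, against 1.86%, 1.70%, 2.22% and 1.65% in the C_HC libraries. Of the 198 genes, 159 were lowest in FP_HC 4 and 166 were highest in C_HC 3, and the remaining 6 libraries overlapped. Without C_HC 3 the median was −0.15 with 7 genes lower at an unadjusted p under 0.05, and without FP_HC 4 it was −0.15 with 15 such genes. Without the 3 libraries with JINGUBANG it was −0.43 with 124 such genes and none called.

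Other families of the translation machinery were examined beside it, and none of their members was called. Ribosome biogenesis genes (31 tested) had a median of −0.22, with 26 below 0 (83.9%, against 49.5% of all genes). At an unadjusted p under 0.05, 7 were lower (22.6%, against 3.41% of all genes). Without FP_HC 4 this median was −0.14, with 3 such genes. Among them nucleolar protein 56 (LOC101250547), a box C/D snoRNP core protein, had 85.6, 92.4, 84.99 and 74.6 CPM in FP_HC, against 111.3, 111.4, 136.1 and 112.4 CPM in C_HC, a log2 fold change of −0.48 (SE 0.161, edgeR adjusted p = 0.604). Nucleolin-like (LOC101263976) had 22.2 to 34.4 CPM in FP_HC and 31.8 to 46.8 CPM in C_HC. The 70 tested genes of chloroplast and mitochondrial ribosomes had a median of −0.20, with 63 below 0 (90%, against 49.5% of all genes). At an unadjusted p under 0.05, 5 were lower (7.14%, against 3.41% of all genes). The count of 5 was 17 in a fit of the FP_HC and C_HC libraries alone, 9 with the equal-height libraries alone and 2 without FP_HC 4. For both lists the level per library separated the groups narrowly, as the median log2 deviation from the mean of the 8 libraries. The highest FP_HC library lay at 0.01 for biogenesis and −0.002 for organelle ribosomes. The lowest C_HC library lay at 0.05 for biogenesis and 0.03 for organelle ribosomes. Lists of other function also separated the groups. For sucrose and starch genes the lowest FP_HC library lay at 0.02 and the highest C_HC library at −0.005. For cell wall loosening genes the highest FP_HC library lay at −0.003 and the lowest C_HC library at 0.04. Translation factors (57 tested) had a median of −0.06, with 3 lower at an unadjusted p under 0.05 (5.26%, against 3.41% of all genes). Elongation factor 1-alpha (LOC101264700) had the smallest p of that list, with 386.1, 511.3, 401.1 and 297.0 CPM in FP_HC, against 527.5, 535.6, 680.5 and 469.2 CPM in C_HC, which overlap.

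**Figure D4:**
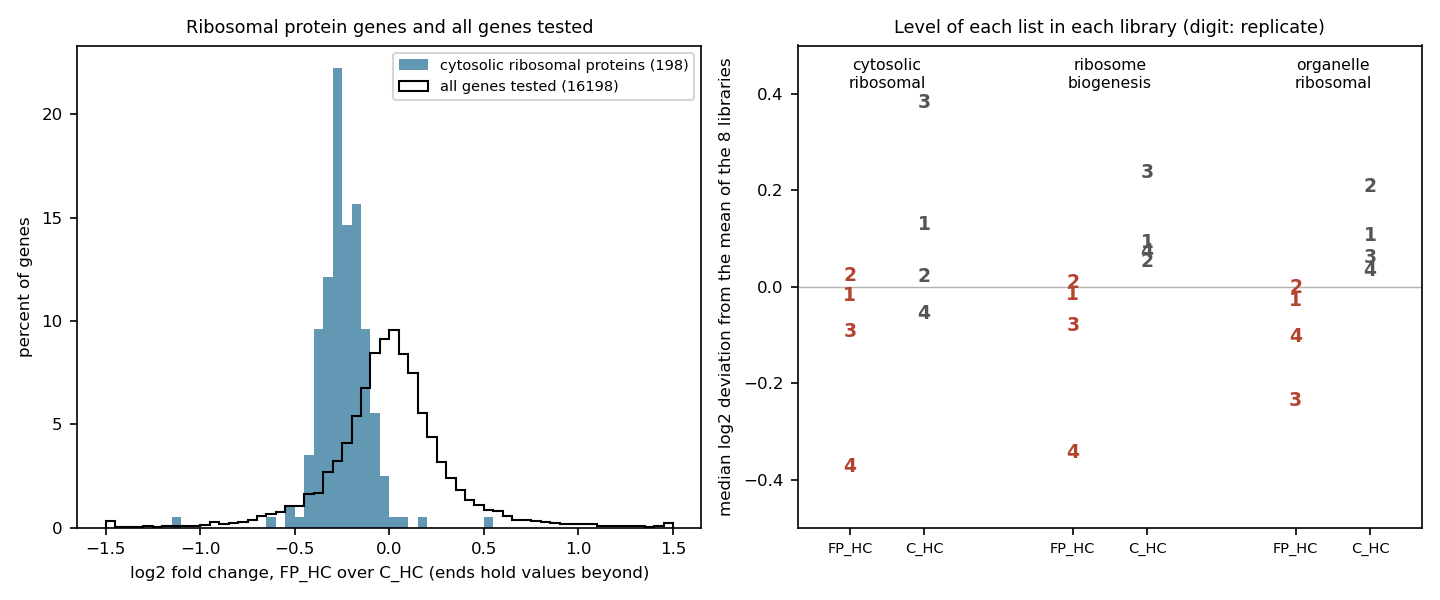
Left, the share of genes by log2 fold change of FP_HC over C_HC for 198 cytosolic ribosomal protein genes (filled) and all 16198 genes tested (line). Right, the median log2 deviation of each of 3 lists in each library, drawn as the replicate number. The filled distribution is centred at −0.25, FP_HC 4 (−0.37) and C_HC 3 (0.38) mark the ends of the cytosolic list, and the remaining libraries of that list overlap.

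Beyond these families, the genes with the smallest p that did not pass were single members of varied function. The receptor-like protein Cf-9 gene LOC101247953, of a family of immune receptors, had 7.36, 11.4, 12.4 and 12.8 CPM in FP_HC, against 5.86, 5.28, 4.32 and 5.97 CPM in C_HC (log2 fold change 1.04, SE 0.219, edgeR adjusted p = 0.137). The 4-hydroxy-tetrahydrodipicolinate reductase gene LOC101253321, of lysine synthesis, had 10.7, 14.4, 14.5 and 12.3 CPM in FP_HC, against 18.0, 17.6, 18.6 and 17.7 CPM in C_HC (log2 fold change −0.47, SE 0.09995, edgeR adjusted p = 0.137). In both the groups did not overlap. The stress-related transcription factor MYB44 (LOC101244577) had 317.3 to 360.6 CPM in FP_HC and 191.7 to 272.4 CPM in C_HC, at a log2 fold change of 0.57 (SE 0.147, edgeR adjusted p = 0.348). The phospholipid enzyme gene LOC101264518, a phosphatidylserine synthase by description, had 51.6 to 57.7 CPM in FP_HC and 37.5 to 42.4 CPM in C_HC (log2 fold change 0.45, SE 0.102, edgeR adjusted p = 0.253). The chloroplast DAG protein gene (LOC101267671) had 46.9 to 53.8 CPM in FP_HC and 59.1 to 75.4 CPM in C_HC (log2 fold change −0.47, SE 0.110, edgeR adjusted p = 0.319).

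Hormone and growth genes gave no call. Of 115 auxin genes tested, 3 stood above 0 at an unadjusted p under 0.05 (2.61%, against 3.36% of all genes). Below 0 stood 4 (3.48%, against 3.41% of all genes), so both counts were near the share of all genes. SAUR78 (LOC101268293), of a family of small auxin-induced genes, had 33.5, 28.9, 31.8 and 38.0 CPM in FP_HC, against 18.1, 16.8, 20.1 and 20.1 CPM in C_HC (log2 fold change 0.82, SE 0.207, edgeR adjusted p = 0.348). It passed in a fit of the FP_HC and C_HC libraries alone (adjusted p = 0.0262). SAUR50 (LOC101250954) lay the other way, with 0.67 to 1.86 CPM in FP_HC and 2.69 to 3.68 CPM in C_HC, and so did the auxin efflux gene PIN9, with 1.84 to 2.69 CPM in FP_HC and 3.60 to 4.68 CPM in C_HC. Of 34 gibberellin and brassinosteroid genes tested, 19 were above and 15 below 0. At an unadjusted p under 0.05, 2 were higher (5.88%, against 3.36% of all genes) and 2 lower (5.88%, against 3.41%). Gibberellin 20-oxidase-1 (20ox-1), a late step of gibberellin synthesis, had 66.4, 32.5, 41.2 and 68.8 CPM in FP_HC, against 21.4, 12.7, 21.4 and 28.3 CPM in C_HC, without overlap (log2 fold change 1.32, SE 0.422, edgeR adjusted p = 0.578).

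Carbon and light-harvesting genes were called in neither direction. Of 47 sucrose and starch genes, 37 had a log2 fold change above 0 (78.7%, against 50.5% of all genes), with a median of 0.11. At an unadjusted p under 0.05 were 4, all higher (8.51%, against 3.36% of all genes). Trehalose-phosphate phosphatase A (LOC101246803), which acts on the sugar signal trehalose-6-phosphate, had 49.5, 47.8, 39.2 and 39.8 CPM in FP_HC, against 24.2, 28.8, 29.8 and 34.5 CPM in C_HC (log2 fold change 0.59, SE 0.177, edgeR adjusted p = 0.529). A beta-amylase (LOC101247340), which breaks down starch, had 118.6 to 134.6 CPM in FP_HC and 86.7 to 103.8 CPM in C_HC. Of 58 photosystem and electron transport genes, 44 were below 0 (75.9%, against 49.5% of all genes), with a median of −0.12. None stood at an unadjusted p under 0.05. The 26 light-harvesting genes had a median of 0.06, also with none. Flavonoid genes (48 tested) had a median of 0.14, with 33 above 0 (68.75%, against 50.5% of all genes). At an unadjusted p under 0.05, 3 were higher (6.25%, against 3.36% of all genes).

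The FTAZ:PCBM filter was also compared with the other filters at equal height. FI_HC shares the donor polymer FTAZ with FP_HC and differs in the acceptor. No gene was called between FP_HC and FI_HC with edgeR or DESeq2, and 382 of 16198 (2.36%) stood at an unadjusted p under 0.05 with edgeR. GIGANTEA averaged 32.4 ± 7.36 CPM in FP_HC and 22.7 ± 5.73 CPM in FI_HC (SD, n = 4 each), a log2 fold change of 0.52 (SE 0.312). LSU3-like averaged 47.3 ± 6.24 CPM in FP_HC and 64.1 ± 14.1 CPM in FI_HC (log2 fold change −0.44, SE 0.242). APS reductase 3-like averaged 4.99 ± 0.878 CPM in FP_HC and 8.38 ± 1.23 CPM in FI_HC (log2 fold change −0.75, SE 0.275). For all 6 genes the mean of FI_HC lay between those of FP_HC and C_HC, and none of the 6 differences from FI_HC passed (unadjusted p from 0.0114 to 0.116).

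Between FP_HC and PI_HC 9 genes were called (0.0556%), 7 higher (0.0432%) and 2 lower (0.0123%) in FP_HC, and none of the 6 genes above was among them. The mean of PI_HC lay further from that of C_HC than FP_HC did in 5 of the 6. GIGANTEA averaged 32.4 ± 7.36 CPM in FP_HC (n = 4), 46.1 ± 6.14 CPM in PI_HC (n = 3) and 10.1 ± 3.87 CPM in C_HC (n = 4), as mean ± SD. PRR37 averaged 119.5 ± 3.08 CPM in FP_HC (n = 4), 176.3 ± 17.1 CPM in PI_HC (n = 3) and 69.7 ± 14.2 CPM in C_HC (n = 4), and its difference between FP_HC and PI_HC was −0.56 (log2, SE 0.1503, edgeR adjusted p = 0.183). LSU3-like was an exception, at 47.3 ± 6.24 CPM in FP_HC (n = 4), 55.4 ± 19.0 CPM in PI_HC (n = 3) and 141.7 ± 35.5 CPM in C_HC (n = 4). FP_HC, FI_HC and PI_HC were set against the same 4 control libraries, so a low or high control moves all 3 comparisons together. Against C_HC, the fit called 347 genes for PI_HC (2.14%) and none for FI_HC, where 839 genes (5.18%) stood at an unadjusted p under 0.05.

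**Figure D5:**
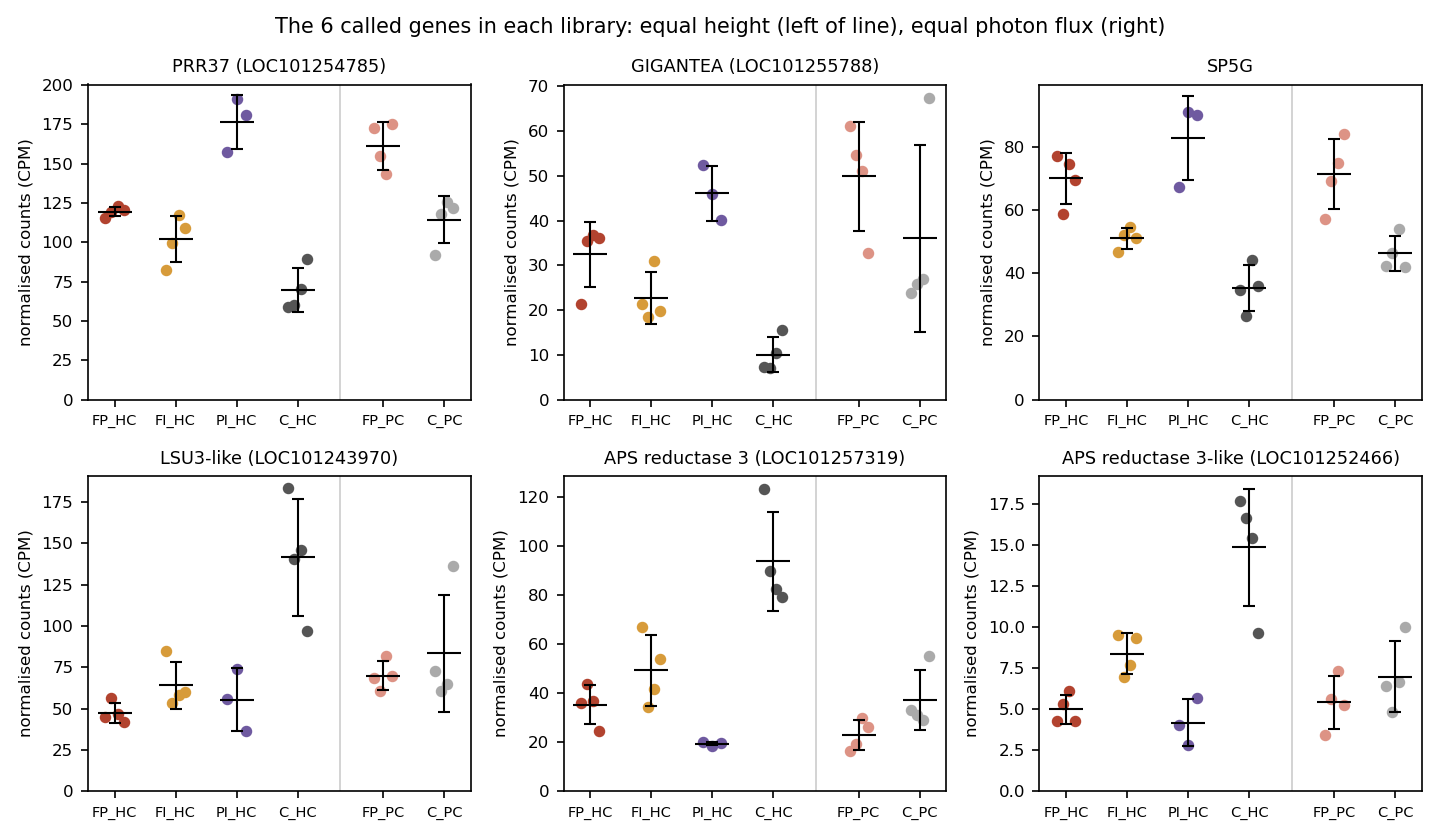
CPM of the 6 called genes in each library (points) with the mean and SD (bars), for the 4 equal-height groups left of the line and for FP_PC and C_PC right of it. FP_HC and C_HC do not overlap in any panel, and the single high GIGANTEA point in C_PC (67.4 CPM) is the library labelled C_PC 4.

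Of the 9 genes called between FP_HC and PI_HC, CONSTANS-LIKE 10 had the smallest adjusted p. It had 52.0 to 63.8 CPM in FP_HC and 29.8 to 34.1 CPM in PI_HC, against 70.6 to 86.7 CPM in C_HC, and it rose by 0.87 in FP_HC over PI_HC (log2, SE 0.130, edgeR adjusted p = 0.00559). The blue-light receptor gene PHOT1 averaged 62.5 ± 2.32 CPM in FP_HC (n = 4) and 104.6 ± 21.1 CPM in PI_HC (n = 3), as mean ± SD, and it fell by 0.74 in FP_HC over PI_HC (log2, SE 0.140, edgeR adjusted p = 0.0365). In C_HC it averaged 58.1 ± 3.81 CPM (SD, n = 4), and its difference between FP_HC and C_HC did not pass. Thioredoxin H4-like (LOC112940024) had 15.1 to 20.02 CPM in FP_HC and 5.24 to 7.37 CPM in PI_HC, against 13.2 to 20.2 CPM in C_HC, and it rose by 1.41 in FP_HC over PI_HC (log2, SE 0.273, edgeR adjusted p = 0.0440). The count of 9 moved with the libraries and the fit, between 0 without PI_HC 4 and 19 without PI_HC 1, and to 113 in a fit of the FP_HC and PI_HC libraries alone.

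With photon flux controlled, the same filter gave no called gene against its own control (FP_PC against C_PC, edgeR), and 660 genes stood at an unadjusted p under 0.05 (4.07%). The 6 genes had the same sign in both experiments. PRR37 averaged 161.4 ± 15.2 CPM in FP_PC and 114.5 ± 15.2 CPM in C_PC (SD, n = 4 each), a log2 fold change of 0.50 (SE 0.141), and SP5G averaged 71.4 ± 11.2 CPM in FP_PC and 46.3 ± 5.57 CPM in C_PC (log2 fold change 0.63, SE 0.182). LSU3-like averaged 70.0 ± 8.78 CPM in FP_PC and 83.6 ± 35.4 CPM in C_PC (log2 fold change −0.26, SE 0.241). The difference of the filter effect between the experiments was tested directly, and no gene passed with edgeR or DESeq2, with 602 at an unadjusted p under 0.05 with edgeR (3.72%). For LSU3-like that difference (equal height minus equal flux) was −1.33 (log2, SE 0.343, unadjusted p = 0.000618, adjusted p = 0.999). For GIGANTEA it was 1.22 (SE 0.444, unadjusted p = 0.0105, adjusted p = 0.999), and for SP5G it was 0.36 (SE 0.257, unadjusted p = 0.169).

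The libraries labelled FP_PC 4 and C_PC 4 carry codes that conflict with their labels. Without them and the library labelled PI_PC 4, the log2 fold change of FP_PC over C_PC was 1.13 for GIGANTEA (SE 0.267), against 0.47 with them, and it was 0.09 for LSU3-like (SE 0.235), so that the sign of LSU3-like turned. The control filter itself had different levels in the experiments, for example 10.1 ± 3.87 CPM of GIGANTEA in C_HC and 36.0 ± 20.9 CPM in C_PC (SD, n = 4 each). Cytosolic ribosomal protein genes had a median log2 fold change of 0.008 in FP_PC over C_PC, with 106 of 198 above 0, against −0.25 at equal height. The other filters at equal height also had negative medians over the same C_HC libraries. The median was −0.13 for FI_HC, with 17 of 198 above 0, and −0.13 for PI_HC, with 38 of 198 above 0.

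Over the 15 equal-height libraries, the genes whose log2 CPM was most like that of the called genes were listed by Pearson's r. These libraries share groups and a sequencing pool, so the values describe likeness only. PRR37 was nearest to a TBC1 domain gene (LOC101256081, r = 0.947), a receptor-like kinase gene (LOC101259524, r = 0.937) and GIGANTEA (r = 0.936). SP5G was nearest to PRR37 (r = 0.912). APS reductase 3 was nearest to LOC544267 (r = 0.967), and APS reductase 3-like to LOC544267 (r = 0.921) and APS reductase 3 (r = 0.918). The next gene for APS reductase 3-like was the amino acid transporter gene AVT6C (LOC101264123, r = 0.915), which had 27.2 to 30.7 CPM in FP_HC and 44.4 to 68.1 CPM in C_HC. LSU3-like was nearest to a pentatricopeptide repeat gene (LOC101258511, r = 0.889) and had no reductase among its nearest 3.

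The 6 genes were also read exon by exon. They were called from the sums of these same counts, so agreement of their exons is not separate evidence. Each exon record with at least 10 counts over the 8 libraries differed in the direction of its gene: 9 of 9 for PRR37, 11 of 11 for GIGANTEA, 4 of 4 for SP5G, 4 of 4 for APS reductase 3, 5 of 5 for APS reductase 3-like and the single exon of LSU3-like. The smallest of these genes in counts was APS reductase 3-like, with 62 to 268 fragments per library.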

How the data were processed

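Poly(A)-selected leaf RNA of 31 plants was sequenced in 1 pool on a DNBSEQ instrument, per the labels' protocols. The deposited values are raw counts per exon record, made by the authors with featureCounts 2.0.1 on read pairs, reverse strand, on a RefSeq annotation of build SL3.0, per the file headers. The submitters' processing notes list HISAT2 and DESeq2 without a role. An exon listed for several transcripts was counted for none: 58.5% of records share coordinates and hold 0, so the 23.9% of genes with 2 or more transcripts hold 1.38% of counts. Rows without a gene name (159031 counts over the 31 libraries) were left out.

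Counts were summed to 30397 genes. edgeR 4.0.16 (R 4.3.3; TMM, filterByExpr, quasi-likelihood F test, all 31 libraries, 1 mean per group) tested 16198 genes, with Benjamini-Hochberg adjustment over all of them in each comparison and a threshold of 0.05. The SE is the absolute log2 fold change over the square root of F. The step was tested on simulated data. The SE includes variation between the plants of a group. Floors cover counting error only, since fragments carry no molecular identifiers. Replicate libraries differed by more than sampling noise (chi-square per gene 12.7 to 28.4). Each is labelled as an individual plant.

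Gene lists are patterns on gene descriptions. After the files were seen, chloroplast import proteins were taken out of the clock list and senescence-associated proteins out of the photoreceptor list, by name. The comparison, lists and tests were chosen with earlier results of these data known. Named genes are those called, the 12 with the smallest p in each direction at a mean log2 CPM of at least 1, all clock and sulfur genes, the 3 with the smallest p of each other list, and the 3 most like each called gene. Not all of these are printed, and the photoperiod and sugar genes printed come from that rule. Genes called between FP_HC and PI_HC, JINGUBANG, CBF1 and the GIGANTEA-like gene were named after their values were seen. Alternatives were other scaling, DESeq2 1.42.0, other filters and sets of libraries, the replicate number as a block, and each library left out. Promoter sequences were not used here.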

Additional observations from a re-analysis of the deposited data

Results flagged for a closer look

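In sets of 4 libraries, the highest or lowest one was set against its distance from the rest (Dixon's test). Of 48 sets, 10 held a library that stood apart. Chance flags about 1 set in 20, but 7 of the 10 are sets of genes chosen after their values were seen and the sets share libraries, so the number of flags is not set against that rate. GIGANTEA was low in FP_HC 1, at 21.4 CPM, against 35.5 to 36.7 CPM in the other FP_HC libraries. JINGUBANG (LOC101249728) had 25.04 CPM in FP_HC 2 and 0 in the other FP_HC libraries.

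Stress-related genes stood apart in the fourth library of FP_HC and of C_HC. This did not hold for the other filters at equal height: SRG2, described as salt responsive protein 2, had 6.54 CPM in FI_HC 4 and 7.90 CPM in PI_HC 4. It had 139.5 CPM in FI_HC 2. CBF1 had 5.30 CPM in FP_HC 4 and 63.0 CPM in C_HC 4, SRG2 had 35.5 CPM in FP_HC 4 and 331.2 CPM in C_HC 4, and the ERF017 gene LOC101253257 had 3.86 CPM in FP_HC 4 and 39.3 CPM in C_HC 4. The other libraries had at most 1.37 CPM of CBF1 in FP_HC and 1.25 CPM in C_HC, and at most 8.37 CPM of SRG2 in FP_HC and 10.3 CPM in C_HC.

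The cytosolic ribosomal protein genes took 1.35% of counts in FP_HC 4, against 1.65% to 1.70% in the other FP_HC libraries. The share held by the top 10 genes by count was 8.88% in C_HC 4, against 9.15% to 9.17% in the other C_HC libraries. JINGUBANG, CBF1, SRG2 and ERF017 were chosen after their values were seen.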

How the results depend on the processing

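The 6 calls of FP_HC against C_HC were also 6 with DESeq2's size factors, without a filter on low counts, with at least 10 counts in every library, with the equal-height libraries alone, without the 3 libraries with conflicting codes and with single-transcript genes alone. DESeq2 called 11, among them all 6. A term for JINGUBANG, an alternative chosen after seeing the data, left 1 (LSU3-like), and leaving out the 3 libraries with JINGUBANG gave 21, without SP5G (adjusted p = 0.164) and GIGANTEA (adjusted p = 0.114). In the FP_HC and C_HC libraries alone 7 were called, without PRR37 (adjusted p = 0.0863), and 4 of the 6 also changed by 1 or more on the log2 scale. Leaving out 1 library at a time gave 0 to 7. LSU3-like passed in 15 of 19 alternatives, the others in 9 to 11, and no direction turned. Whether replicate numbers pair the libraries is not settled. The deviations of same-numbered libraries correlated at −0.02 to 0.31, with a mean of 0.11, against a mean of −0.04 for other pairs. Of 4 FP_HC libraries, 1 was closest to its own number. A replicate block left 3 calls (LSU3-like, APS reductase 3-like and SP5G).

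For the difference between experiments a JINGUBANG term gave 1 call. FP_HC against PI_HC gave 71 with DESeq2, 113 with the compared groups alone, 100 with the equal-height libraries alone, 41 without the conflicting libraries, 5 with the block, 2 without the libraries with JINGUBANG, 3 when a log2 change of 1 or more was also asked for, and 0 to 19 with 1 library left out. The median of the sulfate assimilation genes was −0.0124 with a JINGUBANG term, and −0.0898 to −0.00603 with 1 library left out. The log2 fold change of REVEILLE 7 (LOC101255972), 0.04 with all libraries, turned below 0 without C_HC 1 (−0.0194) and without FP_HC 1 (−0.0184), and lay at −0.0194 to 0.0925 with 1 library left out. The cause was not tested in any of these. Over 50 named genes and 941 alternatives, 2 turned direction, 50 lost and 7 gained a call. PCL1 and the smaller LSU3-like genes were at low counts, so their values carry large errors.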

Other observations

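Gibberellin 20-oxidase-3 (20ox-3), another late enzyme of gibberellin synthesis, had 9.37, 0.95, 7.46 and 13.3 CPM in FP_HC, against 0.46, 0.33, 0.20 and 1.48 CPM in C_HC. It was chosen after its values were seen. The log2 fold change was 3.64 (SE 1.40, edgeR adjusted p = 0.641), the largest increase of the genes tested, and FP_HC 2 lay within the range of the controls. The C_HC libraries held 7, 5, 3 and 22 counts of this gene, so the size of the increase rests on low control counts. At equal photon flux the gene averaged 1.39 ± 1.91 CPM in FP_PC and 3.65 ± 5.38 CPM in C_PC (SD, n = 4 each).

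The nitrate transporter family gene NRT1/PTR FAMILY 6.2 (LOC101268119) had 65.3, 74.2, 146.2 and 77.0 CPM in FP_HC, against 25.5, 47.5, 25.5 and 62.1 CPM in C_HC, without overlap, at a log2 fold change of 1.18 (SE 0.441, edgeR adjusted p = 0.638). Histone H2B.1-like (LOC101244086) had 5.31 to 8.06 CPM in FP_HC and 2.21 to 4.83 CPM in C_HC, at a log2 fold change of 0.84 (SE 0.200, edgeR adjusted p = 0.338). Among 61 tested histone and cell-cycle genes the median was −0.12, with 20 above and 41 below 0.

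The dnaJ homolog gene LOC101258610 had 0.131 CPM in FP_HC 3, against 747.3 CPM as the median of the 4 FP_HC libraries and 848.5 to 1020 CPM in C_HC. The gene was also nearly without counts in libraries of other groups (lowest 0.0718 CPM in PI_HC and 0.0596 CPM in C_PC).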
